A study of Mus musculus with 9 samples.

Results

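Adipogenic skeletal progenitors that had received interferon gamma (IFNγ) were compared with osteogenic skeletal progenitors that had not. The comparison took 6 of the 9 poly(A) RNA-seq libraries, namely the treated adipogenic libraries 4, 5 and 6 against the osteogenic libraries 4, 5 and 6, unpaired. All genes with enough counts were kept, which left 14562 of the 24186 genes in the count table. The groups differed in 2 things at once, the kind of progenitor and the treatment. The 3 untreated adipogenic libraries entered no test and were used to place each gene between the compared groups.

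All cells were bone marrow stromal cells flushed from the femora and tibiae of adult C57Bl/6 mice that carried the irtTA-GBD*-TAg transgene. In culture, dexamethasone and doxycycline switched on Large T-antigen from this transgene, so that osteogenic, adipogenic and treated cells were all conditionally immortalized. Clones were made by limiting dilution or by depositing single cells, and every library came from cells kept without dexamethasone and doxycycline for 3 days. The treated cells were adipogenic progenitors given 10 ng/ml IFNγ for 3 days, and the osteogenic and untreated adipogenic cells had none. The study calls the 3 libraries of a kind biological replicates. No source used here says whether the 3 came from different clones, dishes or mice, so the p-values measure the spread between these libraries only.

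IFNγ binds a receptor made of Ifngr1 and Ifngr2 chains, and the JAK kinases on it phosphorylate transcription factors of the STAT family. These act through gamma-activated sites (GAS), while complexes with STAT2 and IRF9 bind interferon-stimulated response elements (ISRE), and the induced factor IRF1 carries the response further. Fat and bone cells of the marrow come from related stromal progenitors. RUNX2 and SP7 (osterix) drive the bone branch and PPARγ and C/EBPα the fat branch, and the bone branch lays down a matrix rich in type I collagen.

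Library totals ran from 27440089 to 39251602 counts, and no pair of replicate libraries was close enough to be a library deposited again. The 10 most abundant genes held 4.12% to 4.53% of the counts in the treated libraries and 10.7% to 13.3% in the osteogenic ones, and mitochondrial transcripts held 0.66% to 0.706% and 0.945% to 1.06%. The stromal marker Pdgfrb stood at 363 ± 19.8 CPM in osteogenic and 205 ± 78.2 CPM in treated libraries (mean ± SD, n = 3), while Lepr, a marker of marrow stroma, was at 0.375 ± 0.0479 and 0.221 ± 0.101 CPM. The stromal surface markers Thy1, Icam1, Ngfr and Dpp4 and the fat-cell genes Adipoq, Plin1 and Cd36 had too few counts to be tested. Of 5 tested blood and macrophage markers edgeR called none (DESeq2 called 1 higher, and at an unadjusted p under 0.05 edgeR had 1 higher and 1 lower), with a summed level of 12.7 to 20.8 CPM in treated and 10.5 to 13.8 CPM in osteogenic libraries, and the pan-leukocyte marker Ptprc had 0 to 2 counts per library. Levels are CPM, read counts scaled to library size, after trimmed-mean (TMM) scaling, and in such bulk samples fewer cells of a type and less RNA per cell cannot be told apart. Where 3 levels with ± stand in a row, they are the osteogenic, untreated and treated means in this order (± SD, n = 3), a pair joined by "against" gives the compared groups, and ± after a log2 fold change is its standard error.

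At an adjusted p under 0.05, 2245 genes differed (edgeR quasi-likelihood test, Benjamini-Hochberg over all genes tested), which is 15.4% of those tested. Of these, 1240 (8.52%) were higher in treated adipogenic progenitors and 1005 (6.9%) were lower, and 1515 of them differed more than 2-fold. The 3 treated and 3 osteogenic libraries did not overlap for 5686 genes, or 39% of those tested, and 0.1 is the smallest two-sided p that an exact permutation of 3 against 3 libraries allows. The median log2 fold change of all genes tested was 0.016. The number of calls rested on single libraries. It was 1294 without treated library 6, 931 without osteogenic library 4, 958 without osteogenic library 5 and 1041 without osteogenic library 6, with more genes higher than lower each time. The split also moved with the scaling, to 1089 higher and 1176 lower genes with upper-quartile factors. Counts of list members below are those of the edgeR test, and a count of 0 members called in a direction also held for DESeq2, limma-voom and an unadjusted p under 0.05 unless other values are given beside it. Each count is to be read beside the shares of all genes tested, 8.52% higher and 6.9% lower.

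**Figure D1:**
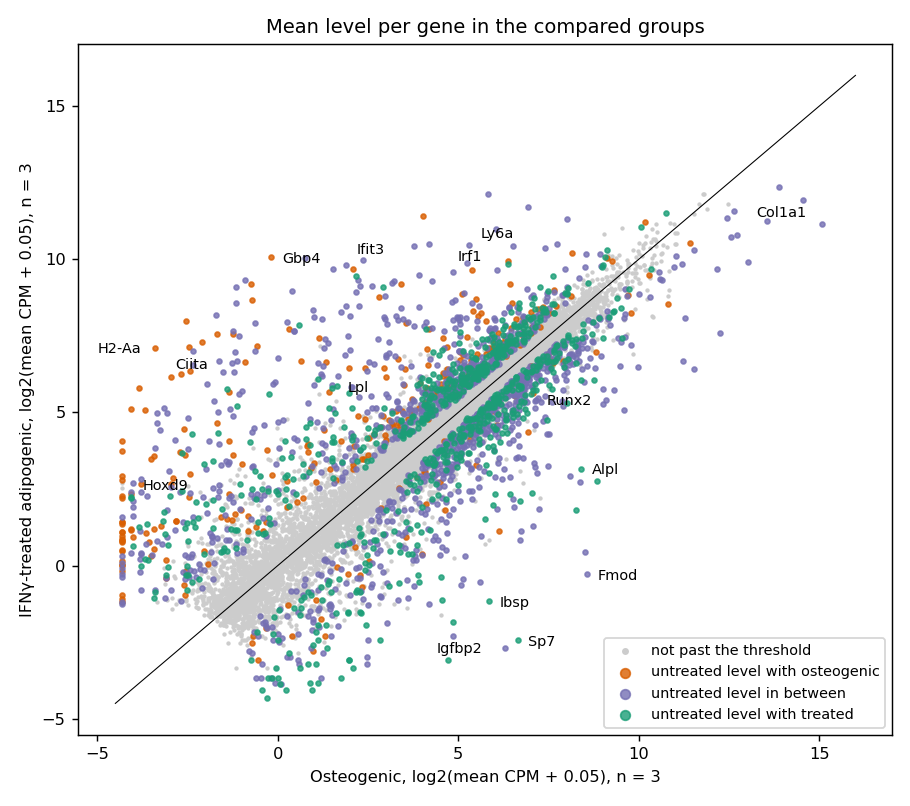
Mean level of tested genes in the osteogenic (x axis) and IFNγ-treated adipogenic (y axis) libraries, 3 per group, as log2(mean CPM + 0.05). Called genes whose untreated level lay beyond either group are not drawn. Grey points did not pass the threshold, and the colours give the place of the untreated adipogenic level, explained in the text. Interferon-induced genes such as Gbp4 and H2-Aa lie far above the diagonal and bone genes such as Sp7 and Fmod far below it.

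Each called gene was placed by its untreated adipogenic level on a scale where 0 is the osteogenic mean and 1 the treated mean (log2 CPM). Up to 0.25 the untreated level lay with the osteogenic one, so that the difference followed treatment. From 0.75 it lay with the treated level, so that the difference followed the kind of progenitor. Genes with levels from 0.25 to 0.75 are called in between. The scale shares its treated and osteogenic values with the comparison and has no test. Among the 1240 higher genes, 255 (20.6%) followed treatment, 601 (48.5%) lay in between and 368 (29.7%) followed the kind of progenitor. Among the 1005 lower genes these numbers were 65 (6.47%), 612 (60.9%) and 326 (32.4%). The median place was 0.549 for higher and 0.632 for lower genes, and 16 higher and 2 lower genes lay outside the range from -0.5 to 1.5. Untreated adipogenic and osteogenic libraries did not overlap for 852 of the 1240 higher genes (68.7%) and 749 of the 1005 lower genes (74.5%).

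**Figure D2:**
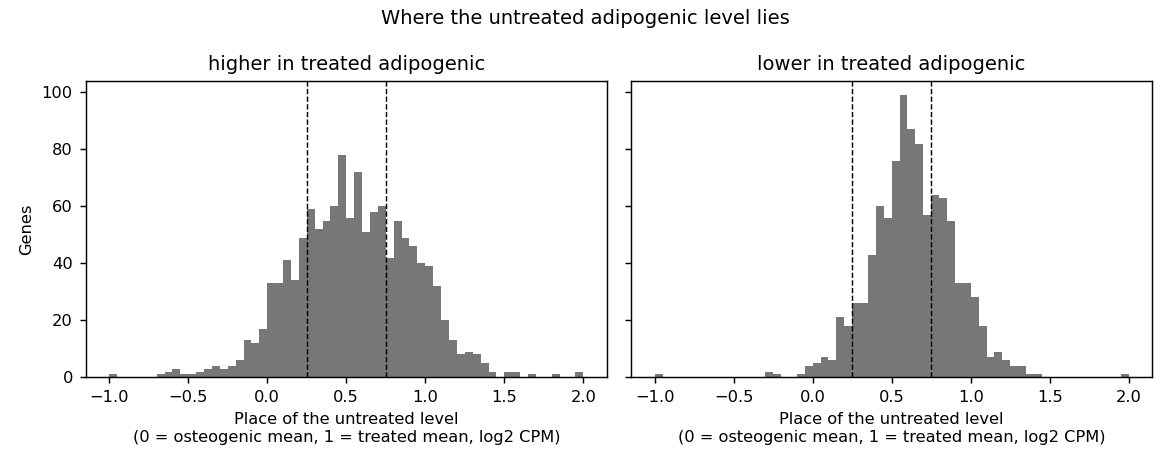
Number of called genes (y axis) by the place of the untreated adipogenic level (x axis; 0 is the osteogenic mean and 1 the treated mean on the log2 CPM scale), for genes higher (left) and lower (right) in treated cells. Dashed lines mark 0.25 and 0.75, and the 5 genes outside -1 to 2 are drawn in the end bins. The lower genes have few members left of 0.25, 66 against 263 of the higher genes.

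Among 20 genes of the interferon receptor and its signalling, 13 were higher in treated cells and 2 were lower, with a median log2 fold change of 2.30. Irf1, the early transcription factor of the response, stood at 45.9, 35.0 and 42.8 CPM in osteogenic, 45.9, 50.5 and 64.5 CPM in untreated and 624, 907 and 854 CPM in treated libraries. Untreated and osteogenic values overlapped, and every treated library was far above both (log2 fold change 4.25 ± 0.22 SE, adjusted p = 0.000117). Stat2, a partner of Irf9 in the ISRE-binding complex, differed in that the untreated cells were already raised. It stood at 32.3, 28.9 and 25.9 CPM in osteogenic, 133, 132 and 184 CPM in untreated and 677, 863 and 770 CPM in treated libraries, and no 2 groups overlapped (log2 fold change 4.71 ± 0.18, adjusted p = 3.83e-05). Irf7, a factor that amplifies the antiviral programme, had the same layout, at means of 3.65 ± 0.917, 75.5 ± 23.2 and 353 ± 97.9 CPM (SD, n = 3).

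Ciita, the master switch of MHC class II genes, followed treatment. Under the better counted of its 2 identifiers it was at 0.183, 0.0738 and 0.141 CPM in osteogenic libraries and 0.282, 0.284 and 0.0499 CPM in untreated ones, against 136, 139 and 141 CPM in treated ones. The osteogenic libraries held 13 counts of it in all, and the ratio of pooled counts was 1020 (95% exact interval 595 to 1910, counting error only). The transcription factor genes Batf2 (0.184 ± 0.0597 CPM in osteogenic, 0.354 ± 0.217 in untreated and 159 ± 44.7 in treated libraries) and Irf8 (0.106 ± 0.0192, 0.177 ± 0.153 and 75.7 ± 41.4 CPM) had the same layout.

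The receptor genes did not share this direction. Ifngr1, the ligand-binding chain, averaged 59.5 ± 7.38 CPM in osteogenic, 90.4 ± 42.2 in untreated and 61.5 ± 15.2 in treated libraries and did not pass the test (adjusted p = 0.95). The signalling chain Ifngr2 was at 114, 105 and 107 CPM in osteogenic, 117, 150 and 117 in untreated and 51.4, 86.0 and 57.5 CPM in treated libraries. Its treated libraries all lay below the others (log2 fold change -0.77 ± 0.20, adjusted p = 0.0484), but this call was lost with DESeq2 size factors and without the filter on low counts, as well as without treated library 4 or 6 or any 1 of the 3 osteogenic libraries. Ifnar1, a chain of the type I interferon receptor, was the other lower member, at 104 ± 8.02 CPM in osteogenic and 63.8 ± 12.2 CPM in treated libraries (adjusted p = 0.0367). The 2 lower members numbered 1 without treated library 4 or 5 and 0 without treated library 6 or any osteogenic library.

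Sequences before the starts of some of these genes are shown because the factors named above read such elements. They are RefSeq promoter windows of build GRCm38.p6, 5′ to 3′ on the gene's strand, and their coordinates belong to another build than the mm9 counts. Capitals mark a match to GAS (TTCNNNGAA) or ISRE (GAAA, any 2 bases, GAAA), each read on either strand, with 18 bases to each side.
Irf1 GAS: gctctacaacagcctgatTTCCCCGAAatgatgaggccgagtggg
Psmb8 GAS: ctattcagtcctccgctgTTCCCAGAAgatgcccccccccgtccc
Stat2 ISRE: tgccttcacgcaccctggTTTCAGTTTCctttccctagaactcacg
Gbp7 ISRE: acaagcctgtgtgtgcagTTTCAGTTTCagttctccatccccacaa
Ifit3 ISRE: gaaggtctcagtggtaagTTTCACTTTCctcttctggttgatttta
Rsad2 ISRE: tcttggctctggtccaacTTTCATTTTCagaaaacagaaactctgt
Cxcl10 ISRE: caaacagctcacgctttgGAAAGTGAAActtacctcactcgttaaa
The Irf1 window is chr11:53769906-53769950 on the plus strand, with the match 90 bases before the start. The others are Psmb8 at chr17:34198080-34198124 (plus, 97 bases before), Stat2 at chr10:128270258-128270303 (plus, 222 bases before), Gbp7 at chr3:142530265-142530310 (plus, 53 bases before), Ifit3 at chr19:34583355-34583400 (plus, 156 bases before), Rsad2 at chr12:26456545-26456590 (minus, 120 bases before) and Cxcl10 at chr5:92349075-92349120 (minus, 213 bases before). Of 32851 promoter windows in the RefSeq table, 2.98% held the ISRE letters and 7.02% the GAS letters on either strand, so that a match is a description and not a site shown to be bound. Such letters also stood before named genes that were not higher or are not printed here: ISRE letters before Spp1 and Scube3, GAS letters before Sox6 and Hoxd4, and RUNX letters (AACCACA) before Cxcl9, Stat2 and Serpina3f.

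The guanylate-binding proteins and immunity-related GTPases, which attack the vacuoles of intracellular microbes, formed the list with the highest median fold change. All 18 tested members were higher in treated cells, with a median log2 fold change of 8.43, and 6 followed treatment while 12 lay in between. Gbp4 stood at 0.792, 0.701 and 0.985 CPM in osteogenic and 0.706, 1.11 and 0.823 CPM in untreated libraries, and at 790, 1135 and 1291 CPM in treated ones. Osteogenic and untreated libraries overlapped, and the treated mean was 1072 ± 256 CPM (SD, n = 3; log2 fold change 10.31 ± 0.33, adjusted p = 1.82e-05). Gbp6 was at 0.335, 0.406 and 0.704 CPM in osteogenic, 8.08, 1.19 and 5.91 CPM in untreated and 629, 632 and 637 CPM in treated libraries, so that its untreated libraries were already above the osteogenic ones. Gbp10 (0.122 ± 0.0424 against 254 ± 88.3 CPM), Gbp9 (0.257 ± 0.0638 against 291 ± 73.8 CPM), Gbp5 (0.26 ± 0.0482 against 188 ± 41.6 CPM), Gbp3 (5.1 ± 0.576 against 1006 ± 115 CPM) and Gbp7 (4.42 ± 0.371 against 482 ± 48.6 CPM) were likewise higher in every treated library. These genes have near-identical copies, and how shared reads were counted is not given in the sources used here, so values of single copies are uncertain.

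Genes for presenting antigen on MHC class II followed treatment almost throughout. Of 9 tested, 7 were higher in treated cells, and 6 of the 7 followed treatment by place. In 3 of the 7, all untreated libraries nevertheless lay above all osteogenic ones. The median log2 fold change was 7.46, or 5.74 with the 1 gene at 0 counts in osteogenic cells set at its bound. H2-Aa, the alpha chain of the I-A molecule, was at 0.0609, 0.0738 and 0 CPM in osteogenic and 0.113, 0.227 and 0.0249 CPM in untreated libraries, against 139, 86.7 and 186 CPM in treated ones. With 4 osteogenic counts in all, the pooled ratio was 3280 (95% exact interval 1280 to 12000). Its partner H2-Ab1 stood at 0.615 ± 0.203, 0.493 ± 0.0905 and 144 ± 63.1 CPM in osteogenic, untreated and treated libraries (log2 fold change 7.86 ± 0.48, adjusted p = 0.000285). H2-Eb1 (1.19 ± 0.472 against 212 ± 56.3 CPM) and the peptide exchange factor H2-DMa (2.64 ± 0.483 against 50.9 ± 12.1 CPM) were also higher in all treated libraries. Ptprc had 0 to 2 counts per library. The tested blood and macrophage markers summed to 12.7 to 20.8 CPM in treated and 10.5 to 13.8 CPM in osteogenic libraries. The part of other cells in the class II levels was not tested.

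The class I route, which shows peptides from the cell's own proteins, was higher in 20 of 22 tested genes, with a median log2 fold change of 3.72. Here 14 genes lay in between and 6 followed treatment. Psmb8, an immunoproteasome subunit, was at 6.82, 5.98 and 5.32 CPM in osteogenic, 44.3, 14.7 and 64.8 CPM in untreated and 545, 520 and 608 CPM in treated libraries. The 3 groups formed separate steps (log2 fold change treated against osteogenic 6.51 ± 0.19, adjusted p = 1.65e-05). The class I chains H2-Q7 (0.37 ± 0.053 CPM in osteogenic, 6.44 ± 5.31 in untreated, 200 ± 41 in treated libraries) and H2-Q6 (0.599 ± 0.123, 8.09 ± 7.27 and 240 ± 27.2 CPM) had the same steps, whereas the untreated level of H2-T22 (34.5 ± 2.78, 64.9 ± 20.2 and 463 ± 60.6 CPM) lay nearer the osteogenic one.

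Antiviral interferon-stimulated genes were higher in treated cells for 35 of 37 tested, with a median log2 fold change of 5.88. They stood apart from the class II genes by their place, since 30 lay in between, 3 followed the kind of progenitor and 2 followed treatment. In 34 of the 35, all untreated adipogenic libraries were already above all osteogenic ones. Among all higher genes, untreated and osteogenic libraries did not overlap in 68.7%. Ifit3, which blocks viral RNA, was at 4.14, 3.25 and 3.6 CPM in osteogenic, 269, 78.4 and 242 CPM in untreated and 761, 999 and 963 CPM in treated libraries (log2 fold change 7.93 ± 0.23, adjusted p = 1.65e-05). Ifit1, of the same family, was at 5.33, 2.91 and 4.95 CPM in osteogenic, 200, 150 and 216 CPM in untreated and 504, 1062 and 523 CPM in treated libraries, and Usp18, which removes ISG15 from proteins, at 1.44 ± 0.48, 85.1 ± 11.1 and 233 ± 103 CPM. In Ifit3, Ifit1 and Usp18 the step from osteogenic to untreated adipogenic cells was the longer one on the log scale. The median place of the called antiviral genes was 0.582. Rsad2 (viperin) was at 0.146 ± 0.0587, 8.06 ± 4.97 and 94.1 ± 15.8 CPM, the nucleic acid sensor Zbp1 at 0.399 ± 0.134, 7.32 ± 5 and 546 ± 36.4 CPM, and Oas2, an oligoadenylate synthetase, at 0.148 ± 0.142, 7.08 ± 6.06 and 128 ± 19.6 CPM in osteogenic, untreated and treated libraries. These 5 lists kept nearly the same number of higher members, whichever library was left out and whichever tool was used. The lowest counts were 12 of the 13 signalling genes, 17 of the 18 GTPase genes, 18 of the 20 class I genes, 7 of the 7 class II genes and 34 of the 35 antiviral genes.

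**Figure D3:**
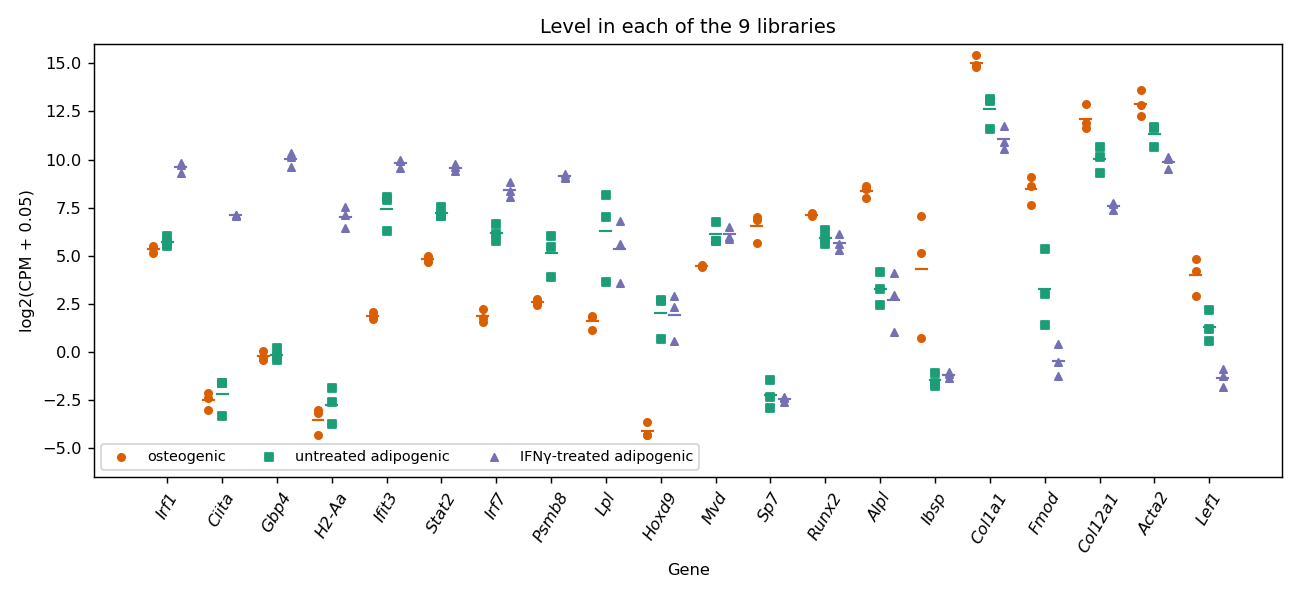
Level of 20 genes (x axis) in each of the 9 libraries as log2(CPM + 0.05) (y axis), by group; short lines are means of the 3 log values. Irf1, Ciita, Gbp4 and H2-Aa have untreated levels at the osteogenic ones, Ifit3, Stat2, Irf7 and Psmb8 form steps, and Hoxd9, Mvd, Sp7, Runx2, Alpl and Ibsp have untreated levels at the treated ones.

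Secreted and surface immune genes were mixed. Of 19 tested chemokines and cytokines, 9 were higher and 2 lower in treated cells, with a median log2 fold change of 1.27. Cxcl10, which draws T cells, was at 1.55, 0.885 and 1.32 CPM in osteogenic, 7.12, 10.1 and 12.6 CPM in untreated and 238, 770 and 479 CPM in treated libraries, and Cxcl9, a ligand of the same receptor, at 2.16 ± 0.394, 2.49 ± 0.203 and 172 ± 119 CPM. Ccl8 had 0 counts in the osteogenic libraries and was at least 219-fold higher in treated ones (floor of 3 counts over the group). Ccl7, a monocyte chemokine, was at 12.9 ± 4.69 CPM in osteogenic, 39.8 ± 16.8 in untreated and 91.6 ± 6.94 CPM in treated libraries. The lower members were Cxcl14 (3.29 ± 2.41 against 0.0289 ± 0.0291 CPM) and Lif, and they numbered 1 without treated library 4 or 6 or any osteogenic library.

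Of 17 checkpoint and immunoregulatory genes, 7 were higher and 1, Tgfb1, was lower. Cd274, which encodes PD-L1, stood at 1.95, 0.959 and 1.01 CPM in osteogenic, 7.51, 5.62 and 5.59 CPM in untreated and 184, 232 and 186 CPM in treated libraries, in 3 separate steps (log2 fold change 7.23 ± 0.34, adjusted p = 9.76e-05). The death ligand Tnfsf10 (0.114 ± 0.132 against 22.1 ± 10.7 CPM) and the tryptophan-degrading enzyme Ido2 (0.341 ± 0.117 against 16.5 ± 3.34 CPM) followed treatment. Ido1 had 0 osteogenic counts and 2.91, 1.39 and 18.2 CPM in the treated libraries, at least 241-fold higher, with treated library 6 far above the other 2. Complement genes were higher for 5 of 12 tested and lower for 2, with 3 higher without osteogenic library 4 or 6. The lower ones numbered 1 when any 1 treated library or osteogenic library 4 or 6 was left out. Complement C4b stood at 0.372 ± 0.178, 1.39 ± 0.728 and 187 ± 13.1 CPM in osteogenic, untreated and treated libraries, and the complement inhibitor Serping1 at 0.488 ± 0.57, 0.516 ± 0.253 and 100 ± 2.39 CPM. Of 22 cell death genes 9 were higher and none lower, among them the inflammatory caspases Casp4 (2.29 ± 0.878 against 72.5 ± 16.7 CPM) and Casp12 (23.7 ± 5.53 against 172 ± 20.6 CPM).

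Other genes with large differences belonged to none of these groups. Mpeg1, a pore-forming protein better known from macrophages, was at 0.457, 0.59 and 0.591 CPM in osteogenic, 5.9, 0.795 and 1.52 CPM in untreated and 768, 448 and 533 CPM in treated libraries. The protease inhibitor gene Serpina3f averaged 0.561 ± 0.239, 0.951 ± 0.496 and 403 ± 93.7 CPM. The surface proteins of the Ly6 family used to sort stromal cells were higher as well: Ly6a (Sca-1) was at 32.4, 54.0 and 31.9 CPM in osteogenic, 113, 58.4 and 128 CPM in untreated and 1024, 1476 and 1747 CPM in treated libraries, and Ly6c1 at 10.6 ± 5.24, 27.6 ± 17.3 and 588 ± 141 CPM. Of 26 stromal surface and lineage markers, 4 were higher and 6 lower. The lower members numbered 3 without treated library 4 and without osteogenic library 5 or 6, and 1 without osteogenic library 4.

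Glycolysis and hypoxia genes were higher for 11 of 29 tested and lower for 1 (median log2 fold change 0.65). Of the 11, 6 followed treatment, 5 lay in between and none followed the kind of progenitor. Hk2, a hexokinase, was at 30.3, 30.7 and 35.7 CPM in osteogenic, 82.1, 65.3 and 64.5 CPM in untreated and 248, 293 and 241 CPM in treated libraries (log2 fold change 2.99 ± 0.14, adjusted p = 9.99e-05). Pgk1, phosphoglycerate kinase, was at 20, 22.1 and 20.5 CPM in osteogenic, 20.7, 18.7 and 25.3 CPM in untreated and 48.9, 44.9 and 44.1 CPM in treated libraries, so that osteogenic and untreated cells overlapped (adjusted p = 0.00356). The number of higher members fell to 7 without treated library 6, to 4 without osteogenic library 4 or 5 and to 5 without osteogenic library 6. Of 40 genes of S and G2/M phase, 4 were higher, near the 8.52% of all genes tested. Most members leaned upward, with a log2 fold change above 0 in 38 of the 40 and a median of 0.62. Of all 14562 genes tested, 7437 had a log2 fold change above 0, and the median was 0.016. Among the 4 called was the licensing factor Cdt1 (47 ± 6.72 CPM in osteogenic, 81.3 ± 19.9 in untreated, 144 ± 38.9 in treated libraries). The count of 4 ran from 1 without treated library 6 or osteogenic library 5 or 6, and 2 without treated library 4 or osteogenic library 4, to 15 without treated library 5.

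Sterol synthesis genes were higher for 7 of 23 tested and had the opposite place, since 6 of the 7 followed the kind of progenitor. Mvd, of the mevalonate pathway, was at 21.1, 22.3 and 23.1 CPM in osteogenic, 55.2, 55.2 and 108 CPM in untreated and 63.4, 59.1 and 91.5 CPM in treated libraries. Treated and untreated libraries overlapped and all of them lay above the osteogenic ones (log2 fold change 1.67 ± 0.20, adjusted p = 0.00406). Lanosterol synthase Lss (44.8 ± 2.08, 132 ± 69.8 and 152 ± 57.1 CPM) and the sterol sensor Insig1 (40.8 ± 13.9, 158 ± 80.4 and 126 ± 32 CPM) had the same layout, but the call for Insig1 was lost without treated library 6 or osteogenic library 4 or 6. The count was 3 without osteogenic library 4 or 5 and 4 without osteogenic library 6.

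Genes of the fat branch were called in both directions. Of 23 tested fat-cell transcription factors 2 were higher and 2 lower, with a median log2 fold change of 0.43. These counts are near the shares of all genes tested, 8.52% higher and 6.9% lower. Pparg, the main driver of fat-cell formation, was at 13.3, 9.41 and 4.78 CPM in osteogenic, 20, 27.5 and 60.5 CPM in untreated and 8.79, 42.1 and 26.4 CPM in treated libraries. All untreated libraries lay above the osteogenic ones, but treated library 4 lay inside their range and the gene did not pass the test (adjusted p = 0.155). Cebpa averaged 28 ± 7.42, 30.9 ± 26.5 and 17 ± 7.2 CPM and did not pass either (adjusted p = 0.213). The higher factors were Klf5 (6.51 ± 0.995, 16.8 ± 3.53 and 15.8 ± 4.63 CPM), known from early fat-cell formation, and Ppargc1a, a coactivator of energy metabolism (0.39 ± 0.126, 2.21 ± 0.201 and 2.21 ± 0.935 CPM). The call for Klf5 was lost without treated library 6 and without any osteogenic library, and that for Ppargc1a without osteogenic library 4 or 5. The lower factors were Tcf7l1 (43.8 ± 3.97 against 22.6 ± 2.47 CPM) and Hes1 (31.3 ± 10.1 against 10.1 ± 5.14 CPM), the latter call lost without treated library 4 or 5 or any osteogenic library.

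Genes listed for the lipids of fat cells were higher for 3 of 26 tested and lower for 4, beside 8.52% higher and 6.9% lower of all genes tested. The lower members included Dlk1, a factor of fat-cell precursors and not a lipid gene. It had 106 osteogenic and 8 treated counts (pooled ratio 14.5, 95% exact interval 7.08 to 34.4). Lpl, which frees fatty acids from lipoproteins, was at 3.6, 3.47 and 2.14 CPM in osteogenic, 127, 12.3 and 291 CPM in untreated and 49.2, 11.8 and 111 CPM in treated libraries. Library 6 was highest and library 5 lowest in both adipogenic groups (log2 fold change 4.21 ± 0.82, adjusted p = 0.0212), and the call was lost with limma-voom and without any 1 of the osteogenic libraries. Pnpla2, the triglyceride lipase, was at 12.6 ± 1.25, 23.6 ± 5.55 and 38.3 ± 9.66 CPM. In the other direction, the fatty acid carrier Fabp5 was at 313, 166 and 289 CPM in osteogenic, 56.3, 37.3 and 28.9 CPM in untreated and 50.6, 37.9 and 31.3 CPM in treated libraries, and Mgll, the monoglyceride lipase, at 3.78 ± 0.492, 0.564 ± 0.462 and 0.297 ± 0.126 CPM. Fabp4, a marker of fat cells, was at 21.9, 25 and 170 CPM in treated and 34.2, 20.6 and 9.06 CPM in osteogenic libraries and did not pass the test (adjusted p = 0.243). The higher lipid genes numbered 5 without treated library 4 or 5 and 1 without any osteogenic library, and the lower ones 2 without treated library 6 or osteogenic library 5 or 6.

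Hox genes, which record the position a cell came from, were higher for 7 of 32 tested and lower for none (DESeq2 called 2 lower, and 3 had an unadjusted p under 0.05), and 4 were higher without osteogenic library 5. Of the 7, 5 followed the kind of progenitor, and untreated libraries lay above osteogenic ones without overlap in all 7. Among all higher genes, 29.7% followed the kind of progenitor, and untreated and osteogenic libraries did not overlap in 68.7%. Hoxd9 had 1 count in the osteogenic libraries together and stood at 6.33, 1.53 and 6.44 CPM in untreated and 7.54, 1.42 and 4.96 CPM in treated libraries (pooled ratio 442, 95% exact interval 79 to 17500). Hoxd8 was at 0.183, 0.148 and 0.253 CPM in osteogenic, 12.2, 2.67 and 7.21 CPM in untreated and 18.1, 3.77 and 8.08 CPM in treated libraries (log2 fold change 5.63 ± 0.72, adjusted p = 0.00555). Library 5 was the lowest in both adipogenic groups for these genes. Hoxd3 and Hoxd4 overlap in the genome and may share reads, and both had 1 osteogenic count, against 439 and 386 treated counts.

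Other higher genes that followed the kind of progenitor also varied widely within it. Sprr1a, a cornified envelope protein, was at 0.731, 0.148 and 0.113 CPM in osteogenic, 1.92, 6.93 and 111 CPM in untreated and 5.36, 17.6 and 141 CPM in treated libraries, and the homeobox factor Nkx2-3 at 0.427, 0 and 0, at 21.3, 6.36 and 76.1 and at 13.2, 4.23 and 41.5 CPM. In both genes library 6 of the adipogenic groups was highest, and both calls were lost (that for Sprr1a also with limma-voom) without any 1 of the osteogenic libraries (that for Nkx2-3 also without treated library 6). Across genes, the deviations of treated and untreated libraries of the same number from their group means had Pearson correlations of 0.774, 0.764 and 0.78, while those of treated and osteogenic libraries of the same number ran from -0.0154 to 0.0571.

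Bone genes were the other pole of the comparison. Of 33 tested transcription factors of bone formation, 11 were lower in treated adipogenic cells and 2 higher (Fosl1 and Twist2), with a median log2 fold change of -0.59. Of the 11, 7 followed the kind of progenitor, 4 lay in between and none followed treatment, and untreated libraries lay below all osteogenic ones in all 11. Among all lower genes, 32.4% followed the kind of progenitor and 6.47% treatment, and untreated and osteogenic libraries did not overlap in 74.5%. Sp7, the zinc-finger factor that commits cells to bone, was at 131, 118 and 50.5 CPM in osteogenic, 0.0847, 0.312 and 0.15 CPM in untreated and 0.146, 0.145 and 0.113 CPM in treated libraries. It was close to absent from both adipogenic groups, with 14 treated counts against 9282 osteogenic ones (pooled ratio 724, 95% exact interval 431 to 1330; adjusted p = 0.000229).

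Runx2, the factor upstream of Sp7, was lower by much less. It stood at 145, 147 and 132 CPM in osteogenic, 57.9, 80 and 49.3 CPM in untreated and 49.0, 70.4 and 39.3 CPM in treated libraries. The adipogenic groups overlapped and both lay below the osteogenic one (log2 fold change -1.44 ± 0.22, adjusted p = 0.00963). Lef1, a Wnt effector, was at 28.3, 7.45 and 18.4 CPM in osteogenic, 1.44, 2.21 and 4.52 CPM in untreated and 0.233, 0.493 and 0.369 CPM in treated libraries, with no overlap between any groups, and Dlx5, a homeobox activator of bone genes, at 36 ± 9.08, 3.23 ± 0.51 and 1.19 ± 0.777 CPM. The list also holds Zfp467, known for favouring fat-cell over bone formation and so not a bone activator. It was nevertheless lower in treated cells, like the bone activators, at 15.9 ± 2.64, 4.72 ± 0.68 and 3.67 ± 0.453 CPM. The number of lower factors was 7 without treated library 6. The Runx2 promoter window is shown because the factor it encodes reads the letters AACCACA, in capitals, which 4.4% of the 32851 promoter windows held on either strand.
Runx2 RUNX: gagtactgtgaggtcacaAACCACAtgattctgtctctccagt
It lies at chr17:44814684-44814726 of GRCm38.p6 on the minus strand, with the match 81 bases before the start.

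Of 28 tested osteoblast and mineralization genes, 13 were lower and none higher (1 by DESeq2 and 1 at an unadjusted p under 0.05), with a median log2 fold change of -1.44. By place, 3 followed treatment, 6 lay in between and 4 followed the kind of progenitor. Alpl, the alkaline phosphatase of mineralizing cells, was at 398, 359 and 259 CPM in osteogenic, 5.45, 9.54 and 17.9 CPM in untreated and 2.04, 7.71 and 16.9 CPM in treated libraries. The adipogenic groups overlapped and both were far below the osteogenic one (log2 fold change -5.28 ± 0.77, adjusted p = 0.00869). Ibsp, bone sialoprotein, varied among the osteogenic libraries at 35.3, 135 and 1.60 CPM, against 0.282, 0.426 and 0.249 CPM in untreated and 0.437, 0.348 and 0.397 CPM in treated ones. Osteogenic library 6 had little of it, and the call (adjusted p = 0.0313) was lost with limma-voom, without osteogenic library 4 or 5 and without any 1 of the treated libraries.

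Bglap, osteocalcin, was low throughout, at 3.6, 0.812 and 1.29 CPM in osteogenic and 0.175, 0.29 and 0.284 CPM in treated libraries (adjusted p = 0.0299, lost without any treated library and without osteogenic library 4 or 6), and shares sequence with Bglap2. Spp1, osteopontin, was at 1236, 1423 and 190 CPM in osteogenic and 248, 408 and 340 CPM in treated libraries. Its groups overlapped through osteogenic library 6, and it did not pass the test (adjusted p = 0.177). Wif1, a Wnt inhibitor, was a lower gene that followed treatment, at 3.38, 6.05 and 5.46 CPM in osteogenic, 1.61, 4.34 and 4.04 CPM in untreated and 0.437, 0.753 and 0.511 CPM in treated libraries (log2 fold change -3.15 ± 0.39, adjusted p = 0.00452). The count of 13 lower genes was 8 without treated library 6 or osteogenic library 4.

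**Figure D4:**
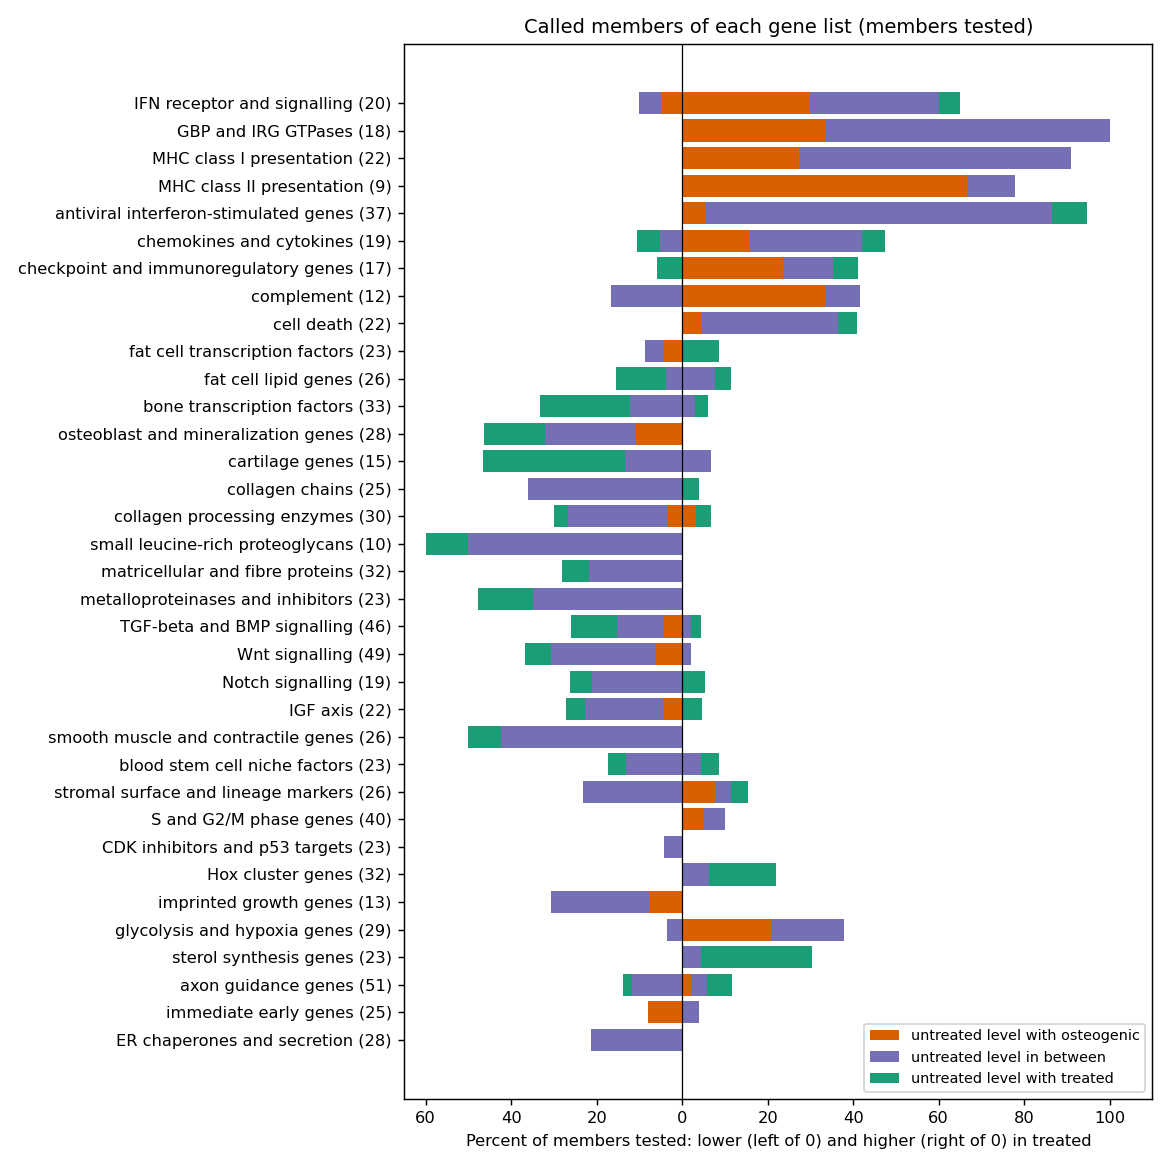
Share of the tested members of each gene list that were lower (left of 0) or higher (right of 0) in treated cells, in percent of members tested (x axis; number tested in brackets), coloured by the place of the untreated level, where genes beyond either end are counted with that end. All 18 GBP and IRG genes are higher, and no small leucine-rich proteoglycan, osteoblast or smooth muscle gene is.

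Collagen chains were lower for 9 of 25 tested and higher for 1, the basement membrane chain Col4a6 (median log2 fold change -0.56). All 9 lower chains lay in between by place, and in all 9 the untreated libraries lay below every osteogenic one. Among all lower genes, 60.9% lay in between, and untreated and osteogenic libraries did not overlap in 74.5%. Col1a1, the main chain of bone matrix, was at 30980, 28318 and 43413 CPM in osteogenic, 8425, 9186 and 3088 CPM in untreated and 1471, 3451 and 1931 CPM in treated libraries (log2 fold change -3.93 ± 0.42, adjusted p = 0.00263). Osteogenic libraries were highest throughout, and untreated library 6 overlapped the treated ones. Its partner Col1a2 was at 23951 ± 4338, 7213 ± 1788 and 3950 ± 316 CPM. Col3a1, the fibril chain of soft tissue, was at 1728, 2052 and 3358 CPM in osteogenic, 1393, 241 and 220 CPM in untreated and 185, 66.5 and 52.1 CPM in treated libraries, and the fibril-associated chain Col12a1 at 4849 ± 2458, 1113 ± 478 and 194 ± 26.6 CPM. For these 2 chains the 3 groups did not overlap. The count of lower chains was 7 to 9 with any 1 library left out, while no chain was called higher with limma-voom or when any 1 osteogenic library was left out.

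Enzymes that hydroxylate, fold and cross-link collagen were lower for 9 of 30 tested and higher for 2, the cross-linkers Loxl4 and Tgm2. The collagen chaperone Fkbp10 was at 772, 697 and 876 CPM in osteogenic, 300, 291 and 321 CPM in untreated and 136, 168 and 221 CPM in treated libraries, in 3 separate steps (log2 fold change -2.18 ± 0.22, adjusted p = 0.00214). P3h1, a prolyl hydroxylase listed as Lepre1, was at 147 ± 24.5, 87.4 ± 12.6 and 64.3 ± 10.2 CPM. The lower enzymes numbered 5 without osteogenic library 5 or 6, and the higher ones 1 without treated library 5 or 6 or osteogenic library 4 or 5 and 0 without osteogenic library 6. Of 28 genes for chaperones and secretion 6 were lower and none higher (1 by DESeq2 and 1 at an unadjusted p under 0.05), all 6 in between by place, among them the coat proteins of ER export Sec24d (316 ± 46.3, 197 ± 37.3 and 147 ± 10.2 CPM) and Sec23a (204 ± 17, 93.4 ± 5.3 and 70.5 ± 17.5 CPM) and the factor Creb3l1 (291 ± 32.4, 153 ± 38.5 and 94.6 ± 16.1 CPM), which drives collagen secretion in bone. This count was 11 without treated library 4.

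Small leucine-rich proteoglycans, which bind collagen fibrils, were lower for 6 of 10 tested and higher for none, with the lowest median of the matrix lists (-2.71). Fmod, fibromodulin, was at 543, 203 and 389 CPM in osteogenic, 41.2, 2.61 and 8.11 CPM in untreated and 1.28, 0.377 and 0.652 CPM in treated libraries. Osteogenic, untreated and treated libraries formed 3 steps without overlap (log2 fold change -8.95 ± 0.65, adjusted p = 0.00061). Aspn, asporin, was at 223, 237 and 637 CPM in osteogenic, 3.36, 29.7 and 2.25 CPM in untreated and 0.407, 2.87 and 0.681 CPM in treated libraries. The others were Omd (134 ± 27.9, 8.29 ± 1.89 and 2.41 ± 1.38 CPM), known from mineralized tissue, Ogn (1014 ± 347, 217 ± 21 and 89.4 ± 42.4 CPM), Prelp, whose 69.6 CPM in osteogenic library 6 stood over 9.26 and 8.12 CPM in libraries 4 and 5 and 0.154 ± 0.0615 CPM in treated ones, and Ecm2.

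Matricellular and fibre proteins were lower for 9 of 32 tested and higher for none (2 by DESeq2, 1 by limma-voom and 3 at an unadjusted p under 0.05). Tnn, tenascin-N of bone surfaces, was at 371, 452 and 102 CPM in osteogenic, 1.10, 1.31 and 1.5 CPM in untreated and 1.60, 1.39 and 7.35 CPM in treated libraries, and followed the kind of progenitor (log2 fold change -6.5 ± 0.98, adjusted p = 0.00941). Emilin1 was at 443 ± 121, 133 ± 31 and 87.2 ± 34.9 CPM. Periostin (Postn), a matrix protein of bone and tendon linings, was listed with the osteoblast and mineralization genes and is not part of the count of 9. It was at 3959, 1976 and 2902 CPM in osteogenic, 1703, 457 and 191 CPM in untreated and 156, 46.2 and 50.7 CPM in treated libraries, with no overlap between groups. The count of 9 matricellular and fibre proteins was 4 without osteogenic library 5 or 6.

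Metalloproteinases and their inhibitors were lower for 11 of 23 tested and higher for none, among them the inhibitor Timp2 (2101 ± 58, 1721 ± 136 and 1102 ± 54 CPM; lost without osteogenic library 5) and the protease Adamts12 (77.3 ± 16.7, 22.6 ± 9.4 and 8.87 ± 3.63 CPM). Their count was 7 and 4 without treated library 5 and 6, and 2, 3 and 4 without osteogenic library 4, 5 and 6. Cartilage genes were lower for 7 of 15 tested and higher for 1, Col9a3 (not called without treated library 5 or 6 or any osteogenic library), and 5 of the 7 followed the kind of progenitor, among them Fgfr3, a receptor that restrains growth plates (14.4 ± 4.65, 3.66 ± 1.09 and 2.44 ± 0.375 CPM), and the cartilage factor Sox6, with 215 osteogenic and 2 treated counts (pooled ratio 117, 95% exact interval 32.1 to 976). This count was 3 without treated library 6 or osteogenic library 5 and 4 without osteogenic library 4 or 6.

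Smooth muscle and contractile genes, which stromal cells share with pericytes and myofibroblasts, were lower for 13 of 26 tested and higher for none (median log2 fold change -1.40). By place, 11 lay in between and 2 followed the kind of progenitor. Acta2, smooth muscle actin, was at 4922, 7384 and 12514 CPM in osteogenic, 3256, 3161 and 1592 CPM in untreated and 727, 1125 and 1043 CPM in treated libraries. The 3 groups did not overlap (log2 fold change -3.12 ± 0.41, adjusted p = 0.00579). The myosin light chain Myl9 (876 ± 301, 336 ± 50.6 and 148 ± 24.8 CPM) and the LIM protein Csrp2 (510 ± 134, 153 ± 50.1 and 54.4 ± 21.3 CPM) had the same steps, and smoothelin, Smtn, (183 ± 17.4, 72 ± 18.1 and 59.8 ± 4.04 CPM) followed the kind of progenitor. The count was 7 without osteogenic library 5 or 6.

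Signalling pathways that act on bone were lower in part. Of 49 tested Wnt genes, 18 were lower and 1, the secreted inhibitor Sfrp1, was higher, with a median log2 fold change of -0.91. The co-receptor Lrp4 was at 66.1, 68.3 and 59.4 CPM in osteogenic, 9.52, 6.22 and 5.19 CPM in untreated and 7.39, 3.82 and 3.69 CPM in treated libraries (log2 fold change -3.72 ± 0.32, adjusted p = 0.00127). The receptor Ror2 was at 58.9 ± 2.12, 21.1 ± 3.6 and 18.2 ± 2.77 CPM. Both followed the kind of progenitor. Sfrp1 was at 6.28, 15.7 and 1.52 CPM in osteogenic, 46.9, 12.8 and 404 CPM in untreated and 191, 151 and 1005 CPM in treated libraries, with library 6 of both adipogenic groups far above the others. The call for Sfrp1 was lost without any 1 of the osteogenic libraries. The lower Wnt genes numbered 11 without treated library 6 or osteogenic library 4 or 6 and 10 without osteogenic library 5.

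Of 46 TGF-β and BMP genes, 12 were lower and 2 higher, the BMP antagonist Grem1 and the co-receptor Tgfbr3 (60.6 ± 7.56, 128 ± 42.7 and 174 ± 42.8 CPM). Ltbp2, of the latent TGF-β binding family, was a lower gene that followed treatment, at 39.4, 80.5 and 88.6 CPM in osteogenic, 36.5, 17.2 and 68.5 CPM in untreated and 1.25, 0.869 and 4.31 CPM in treated libraries. Osteogenic and untreated libraries overlapped and all lay above the treated ones (log2 fold change -5.04 ± 0.72, adjusted p = 0.00795). Smad6, an inhibitor of BMP signals, was at 80.9 ± 11.7, 25 ± 11.4 and 20.2 ± 4.03 CPM, and the receptor Acvr1 at 98 ± 14, 66.1 ± 11 and 47.4 ± 3.25 CPM. Grem1 was at 16.8, 3.58 and 31.2 CPM in osteogenic, 379, 56.6 and 134 CPM in untreated and 406, 76.5 and 156 CPM in treated libraries (adjusted p = 0.0471). The count of 12 was 6 without osteogenic library 5 and 5 without osteogenic library 6. The 2 higher genes numbered 1 without treated library 6 or osteogenic library 4 or 6.

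In the IGF axis 6 of 22 tested genes were lower and 1 higher. Igfbp2, an IGF carrier, was at 15.8, 51.5 and 168 CPM in osteogenic, 1.81, 0.256 and 3.99 CPM in untreated and 0.0582, 0.0869 and 0.17 CPM in treated libraries, with 11 treated counts in all (pooled ratio 784, 95% exact interval 438 to 1570; adjusted p = 0.00555). Pappa2, a protease that cuts IGF carriers, was at 85.6 ± 41.6, 14 ± 17.8 and 5.05 ± 4.18 CPM, and the insulin receptor substrate Irs1 at 315 ± 95, 208 ± 59.5 and 122 ± 9.81 CPM. The higher gene was the RNA-binding Igf2bp3 (8.89 ± 1.79, 27.6 ± 8.54 and 31.6 ± 8.49 CPM). Notch genes were lower for 5 of 19 tested, with Lfng, which modifies the receptor, at 54.6 ± 13.9, 13.7 ± 6.92 and 9.77 ± 3.25 CPM, and higher for 1, the ligand Dll1, whose call was lost without treated library 5 or 6 or any osteogenic library. The lower Notch genes numbered 3 without treated library 5 or 6, 2 without osteogenic library 4 and 1 without osteogenic library 5 or 6.

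Of 23 blood stem cell niche factors, 2 were higher (Il7 and Lpl) and 4 lower, and the lower ones numbered 2 without treated library 6 or osteogenic library 6 and 1 without osteogenic library 5. Cxcl12, the chemokine that keeps blood stem cells in the marrow, was at 948, 1280 and 1398 CPM in osteogenic, 3547, 779 and 3173 CPM in untreated and 701, 276 and 274 CPM in treated libraries. The treated libraries all lay below the osteogenic ones, yet the gene did not pass the test (adjusted p = 0.0567). The lymphoid cytokine Il7 was at 0.709 ± 0.272, 1.4 ± 0.361 and 2.87 ± 0.463 CPM, a call lost without treated library 6 and without osteogenic library 4 or 5. Tgfb1 was at 106 ± 12.2, 48.4 ± 11.7 and 41.4 ± 14 CPM, a call lost without osteogenic library 5 or 6.

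Among the lower genes with the largest differences, several stood outside these lists. Megf6, a protein with EGF repeats, was at 513, 427 and 431 CPM in osteogenic, 7.68, 11 and 5.29 CPM in untreated and 4.6, 9.85 and 5.67 CPM in treated libraries, and followed the kind of progenitor (log2 fold change -6.11 ± 0.34, adjusted p = 0.000214). Scube3, a secreted protein, was at 105 ± 17.1, 16.4 ± 1.07 and 1.72 ± 1.09 CPM and the calcium channel Cacna1g at 48.7 ± 20.3, 3.22 ± 2.38 and 0.645 ± 0.699 CPM. The tetraspanin Tspan18, under its better counted identifier, had 2583 osteogenic and 7 treated counts (pooled ratio 403, 95% exact interval 195 to 1000). Fndc1 was at 7.59, 71.9 and 7.80 CPM in osteogenic libraries, with library 5 apart, and at 0.231 ± 0.127 CPM in treated ones, and its call was lost with limma-voom and without treated library 6.

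Axon guidance and ephrin genes, which also act between bone cells, were higher for 6 of 51 tested and lower for 7. Of all genes tested, 8.52% were higher and 6.9% lower. The netrin receptor Unc5b was at 542, 399 and 331 CPM in osteogenic, 198, 298 and 184 CPM in untreated and 126, 178 and 164 CPM in treated libraries, in 3 steps without overlap (log2 fold change -1.46 ± 0.23, adjusted p = 0.01). The ephrin receptor Ephb3 was at 69.8 ± 4.89, 22.8 ± 5.66 and 11.4 ± 3.5 CPM, while the semaphorin Sema4b was higher, at 13.9 ± 0.747, 20.5 ± 1.49 and 34 ± 4.29 CPM. The higher members numbered 3 without treated library 5 or 6 and 1 without any osteogenic library, and the lower ones 3 and 4 without osteogenic library 4 and 5.

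Imprinted growth genes were lower for 4 of 13 tested and higher for none (2 by DESeq2, 1 at an unadjusted p under 0.05 and 2 called without treated library 6). Mest, expressed from the paternal copy, was at 110, 73 and 135 CPM in osteogenic, 12.3, 1.62 and 8.71 CPM in untreated and 4.86, 0.608 and 0.936 CPM in treated libraries, so that both adipogenic groups lay far below the osteogenic one (log2 fold change -5.64 ± 0.85, adjusted p = 0.00964). The calls for the growth adaptor Grb10 and for Sgce were lost without any 1 osteogenic library, and the count was 2 without treated library 4 or 5 or osteogenic library 4 and 1 without treated library 6 or osteogenic library 5 or 6. Of 23 CDK inhibitors and p53 targets edgeR called 1 lower and 0 higher, against 2 and 2 by DESeq2, with 2 higher at an unadjusted p under 0.05. The lower one, Cdkn2b, which blocks CDK4 and CDK6, was at 274 ± 64.1, 193 ± 38.5 and 119 ± 6.82 CPM, and it kept its call with any 1 library left out. Of 25 immediate early genes 1 was higher and 2 were lower, Ier2 and Ier3, beside 8.52% higher and 6.9% lower of all genes tested. Ier2 was at 47.7 ± 15, 126 ± 29 and 24.6 ± 2.63 CPM, highest in untreated cells, a call lost with any 1 library left out.

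A few lower genes followed treatment. Besides Ltbp2 and Wif1, the receptor tyrosine kinase Ret was at 9.54, 9.67 and 15.8 CPM in osteogenic, 3.73, 19.7 and 11 CPM in untreated and 0.815, 2.49 and 2.30 CPM in treated libraries, a call lost without osteogenic library 6. The amine oxidase Aoc3 was at 15.8 ± 10.7, 11.5 ± 9.46 and 1.24 ± 0.725 CPM. D0H4S114 was at 24.7 ± 1.69, 29.5 ± 20.2 and 3.47 ± 2.32 CPM. In all 3 the osteogenic and untreated libraries overlapped and the treated ones lay below both.

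For 18 called genes the untreated level lay beyond either group. Tubb3, a tubulin of neurons, was at 34.6, 26.8 and 25.4 CPM in osteogenic, 15.8, 3.21 and 1.60 CPM in untreated and 101, 144 and 181 CPM in treated libraries, so that the untreated cells were lowest and the treated highest (log2 fold change 2.27 ± 0.25, adjusted p = 0.00314, a call lost with all 9 libraries in the fit). The neural crest marker Sox10 was not tested for want of counts. Socs2, a feedback inhibitor of cytokine signals, was highest in untreated cells, at 6.88 ± 0.969, 35.7 ± 7.57 and 15.5 ± 4.49 CPM in osteogenic, untreated and treated libraries, a call lost without treated library 4 or 6 or any osteogenic library. Cyp26b1, which degrades retinoic acid, was lowest in untreated cells, at 33 ± 4.7, 4.45 ± 0.75 and 16 ± 5.52 CPM, a call lost without the same libraries.

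Markers of other cell types were called in small numbers. Of 6 tested endothelial markers Kdr was higher (1.72 ± 0.594, 12 ± 4.78 and 39.3 ± 15.8 CPM) and Erg lower (105 osteogenic counts against 1), with summed levels of 32.4 to 88.0 CPM in treated and 24 to 68.8 CPM in osteogenic libraries. Of 4 tested skeletal muscle markers Acta1 and Tnnt1 were lower, and of 3 epithelial ones Cdh1, at 2.71 ± 1.03 CPM in osteogenic and 0.501 ± 0.382 CPM in treated libraries. Each of these 3 calls was lost without treated library 5 or 6 and without osteogenic library 4, that for Acta1 also without treated library 4 or osteogenic library 6, that for Tnnt1 without osteogenic library 5 and that for Cdh1 without osteogenic library 5 or 6. The part of other cells in these values was not tested.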

How the data were processed

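RNA was measured by poly(A) sequencing with a directional kit, in 9 libraries of 3 groups of 3. The deposited table holds raw counts per gene made by the authors, with each gene's exon number and exonic length as other columns. Tools listed per the submitters' processing notes were bedtools 2.11 and CASAVA 1.8.0, with mm9 as the build. Which aligner, counting rule and strand setting produced the table was not given in the sources used here, so genes with near-identical copies, overlaps or antisense partners are uncertain. The table gives no coordinates.

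Genes were filtered with edgeR's filterByExpr, scaled by TMM and tested with edgeR 4.0.16 (R 4.3.3; robust quasi-likelihood fit on the 6 libraries compared, no covariate, Benjamini-Hochberg adjustment over 14562 genes, threshold 0.05). Totals of 27440089 to 39251602 counts put the floor of 3 counts at 0.0748 to 0.111 CPM per library, and ratios of pooled counts and floors cover counting error only. Where a group had few counts, the exact binomial interval (Clopper-Pearson, 95%) of the pooled ratio replaces the fitted fold change. Place used log2 CPM with a prior count of 2. Alternatives were other scalings, DESeq2 1.42.0, limma-voom (limma 3.58.1), no filter, all 9 libraries, a replicate block, non-robust estimation and leaving out each library.

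Genes were named by a rule: the 12 largest rises and falls (non-overlapping groups, mean of 10 CPM or more where higher), up to 4 members of each list by adjusted p, up to 4 of each direction and place class, and a fixed set of lineage and interferon genes. Bglap2, Col4a6, Col9a3, Cxcl14, Dlx5, Ecm2, Fabp4, Grem1, Ido1, Ifnar1, Irf7, Irf8, Lepr, Lif, Loxl4, Pdgfrb, Postn, Sfrp1, Tgm2 and Twist2 were named after their values were seen. The comparison, lists and rule were chosen with earlier results of these data known. Promoter windows came from the RefSeq table of GRCm38.p6.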

Additional observations from a re-analysis of the deposited data

How the results depend on the processing

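The comparison was repeated under 14 alternatives. The 2245 calls became 2246 with DESeq2 size factors, 2265 with upper-quartile scaling (1089 higher and 1176 lower, the other way round than the 1240 and 1005), 2306 with limma-voom, 2020 without the filter on low counts and 2525 with all 9 libraries in the fit, which keeps the count within 1.5 times. DESeq2 called 3705 genes, 1985 higher and 1720 lower. Leaving out 1 library gave 931 to 2254 calls, 541 to 1272 higher and 386 to 982 lower; the fits without a library have fewer samples. With the numbers 4, 5 and 6 as a replicate block there were 1257 calls, 705 higher and 552 lower, of which 1180 were among the 2245. Treated and osteogenic libraries of the same number did not deviate together. Whether they share more than a number is not given in the sources used here, so the block is no test of a pairing. The naming rule gave 166 genes past the threshold. Of these, 124 kept their call under all 14 alternatives, 42 lost it under at least 1, and none changed direction. Genes named after their values were seen are not in this count. Counts of list members moved too. DESeq2 called 9 higher fat-cell lipid genes (3 in edgeR), 11 S and G2/M phase genes (4), 6 immediate early genes (1), 17 lower matricellular genes (9), 21 smooth muscle genes (13), 10 niche factors (4) and 12 higher sterol genes (7), and the block left 4 higher glycolysis genes of 11. The place classes kept their sizes within 1.5 times with a prior count of 0.5, other cut-offs or group medians, except the smallest. The 9 genes beyond the osteogenic level became 4 with group medians, and the 9 beyond the treated level became 14 without untreated adipogenic library 4 and 17 and 16 without treated library 4 and 5, with the cause not tested. The floor of 3 counts corresponds to 0.0748 to 0.111 CPM per library, and differences between groups that are both below it were not detectable at this depth.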
